A study of Homo sapiens with 5 samples.

Results

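In TOV21G cells, 60 genes were expressed in the parental line and stood at 10% of that level or lower in both EZH2 inhibitor-resistant (EIR) clones derived from it. TOV21G is an established ovarian clear cell carcinoma (OCCC) line with mutated ARID1A, and all 5 libraries carry that background. ARID1A belongs to the SWI/SNF family of chromatin remodelers. The parental library came from untreated cells. The EIR cells had been selected in GSK126, an inhibitor of the histone methyltransferase EZH2, at 5 uM, then 10, 15 and 20 uM, and clones 3 and 4 were picked afterwards. Each clone was profiled untreated and treated with GSK126, as 1 library each, and the dose and duration of that last treatment are not in the labels. Each clone derives from a picked clone and the parental line was sequenced as a single library, so the difference between parental and EIR cells has no replicate on the parental side.

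Genes entered the set by their measured values. Counts were divided by the library total to give counts per 1000000 (CPM). A gene was taken if it was protein-coding or a long noncoding RNA (lncRNA), had at least 5 CPM in the parental library, and had in every one of the 4 EIR libraries at most 10% of its parental CPM. Gene symbols starting with HOX, KRT, COL, MT1, MT2, PCDH, ZNF or ABC were left out. This gave 60 genes, 58 protein-coding and 2 lncRNA, of 10046 eligible genes (0.597%) and of 30476 identifiers in the table. The prefixes removed 4 genes that met the values: COL17A1, HOXD10, COL26A1 and MT1E. The loss relative to the parental library is therefore what chose the genes, and it is described below without a test.

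EZH2 is the catalytic subunit of Polycomb repressive complex 2, which places the repressive mark H3K27me3 on nucleosomes, most often at CpG-rich promoters of developmental genes. SWI/SNF complexes slide and evict nucleosomes and are known to oppose Polycomb repression. Chromatin, DNA methylation and gene copy number were not measured in these libraries. In bulk RNA, fewer expressing cells and less RNA per cell cannot be told apart.

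Total counts ranged from 25479238 to 30764963 per library, so 1 count was worth 0.0325 to 0.0392 CPM. The line's identity was checked with markers. PAX8, the lineage factor of OCCC, had 103 to 151 CPM in every library, and KRT18 had 399 to 638 CPM. Several markers separated the clones. EPCAM, an epithelial adhesion protein, had 13.3 CPM in parental cells, 13.8 and 17.0 in clone 3 and 0 and 0.0392 in clone 4. CDH1, the epithelial cadherin, had 0.201 CPM in parental cells, 3.51 and 5.05 in clone 3 and 0.0678 and 0.157 in clone 4. WT1, a marker of serous tumors, had 1.27, then 5.95 and 5.80, then 0 and 0.0785 CPM, and the clear cell marker NAPSA 0.0670, then 1.72 and 1.71, then 0.203 and 0.157 CPM. Summed CPM over 6 fibroblast markers was 0.737 in the parental library and 0.916 to 2.63 in the EIR ones, over 3 endothelial markers 0.302 and 0.488 to 0.785, and over 3 leukocyte markers 1.04 and 0.136 to 0.667.

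Together the 60 genes summed to 2802 CPM in the parental library and to 79.5 and 85.9 CPM in clone 3, untreated and GSK126-treated, and 50.4 and 69.2 CPM in clone 4. These sums were 2.84%, 3.07%, 1.80% and 2.47% of the parental sum. Every parental value thus stood far above all 4 EIR values, which the rule required. Taking each gene at its highest EIR library, 1 gene was at 0, 11 were above 0 and up to 1% of parental, 22 were above 1 and up to 5%, and 26 were above 5 and up to 10%, with a median of 4.12%. The count was 3 or lower in every EIR library for 7 genes, and 14 genes had no count in at least 1 of them. At such counts the depth sets how far the loss can be followed, and a fold against a group at 3 counts or fewer is given as a lower bound, computed against 3 counts per library. Parental levels of the set ranged from 5.13 to 407 CPM with a median of 16.9, against 38.9 over all eligible genes.

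**Figure D1:**
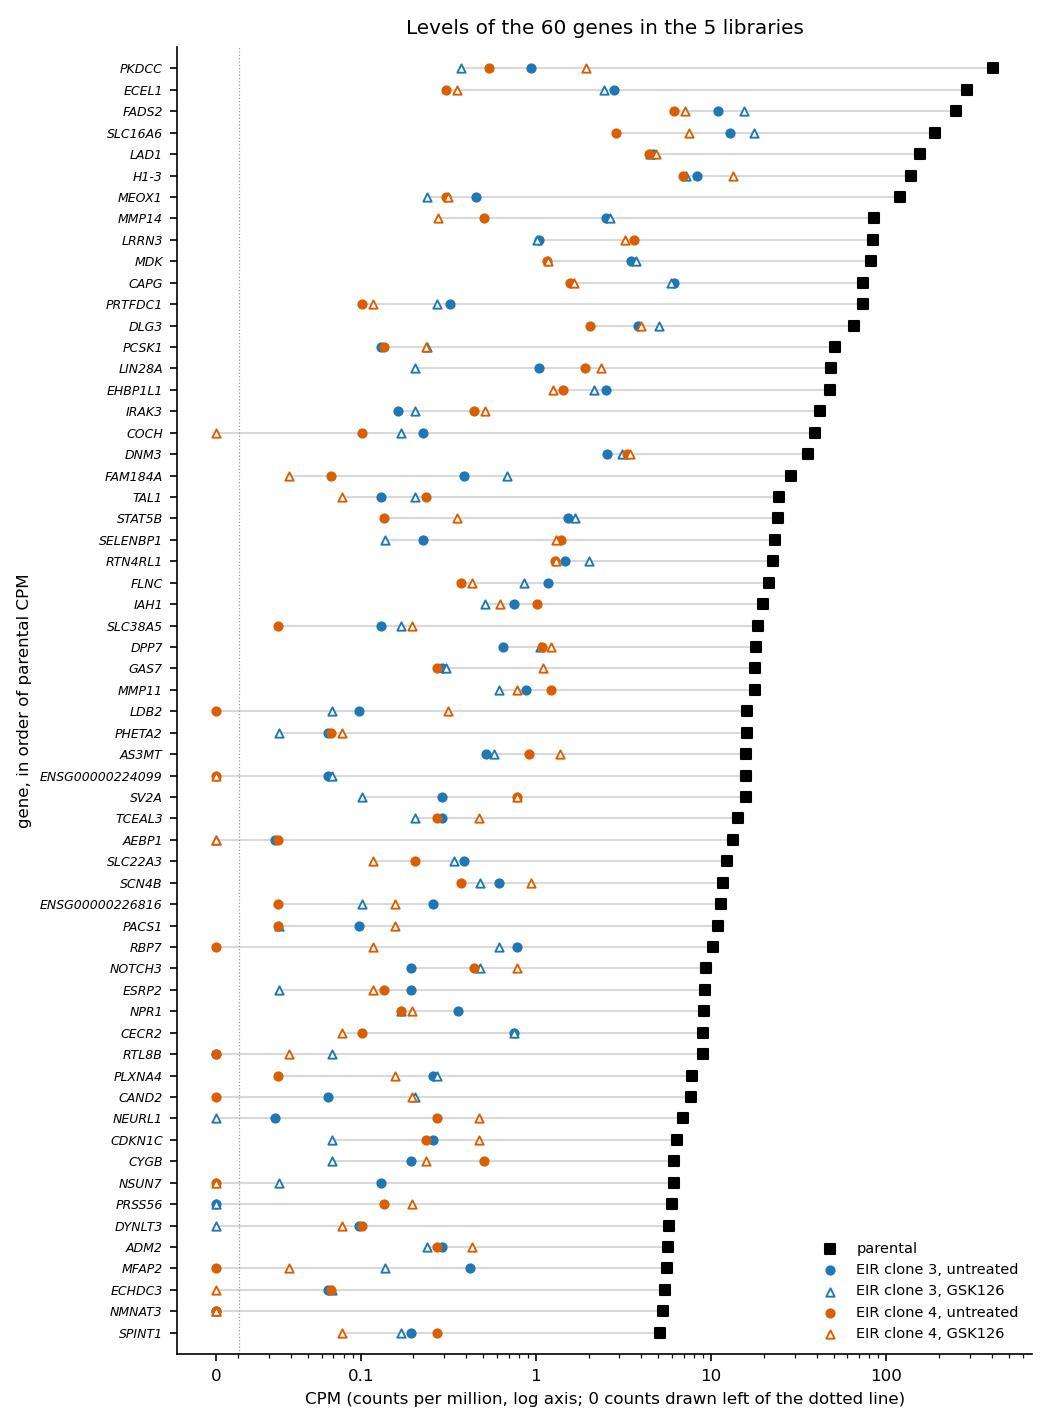
CPM (log axis) of each of the 60 genes in the parental library (black squares), EIR clone 3 (blue) and EIR clone 4 (orange), untreated (filled circles) or GSK126-treated (open triangles), with 0 counts drawn at the left edge. Parental values run from 5.13 to 407 CPM, and every EIR value lies at 10% of the parental value or lower, with NMNAT3 at 0 in all 4 EIR libraries.

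The edges of the set were not sharp. DNM3 at 9.74% of parental in its highest EIR library, H1-3 at 9.65% and SLC16A6 at 9.23% lay just inside. CXCR4, the chemokine receptor, lay just outside at 10.2% and 10.0% in clone 3, although clone 4 kept 0.421% and 0.744%. TRANK1 at 10.3% and RNF157 at 10.7% were also just outside. At the parental minimum, SPINT1 (5.13 CPM) and NMNAT3 (5.33 CPM) were inside, and PROM1 (4.99 CPM) and C12orf56 (4.86 CPM) were outside.

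In the following, values are estimated read counts, and the pair given for each clone is untreated and then GSK126-treated. Functional groups were assigned from general knowledge of the genes after the set was known, and serve as an order of description. The largest group, 13 genes, encoded secreted proteins, matrix proteins and proteases. PKDCC (chr2:42275161-42285657, GRCh37, plus strand) is a secreted tyrosine kinase that phosphorylates extracellular matrix proteins, and it had the highest parental CPM of the set. It had 12156 counts in parental cells (407 CPM), 29 and 11 in clone 3 and 16 and 49 in clone 4. All 4 EIR values were below 1% of parental, the highest being 0.472% in treated clone 4, and the parental CPM was 431 times the mean of the EIR libraries. That mean was 0.232% of parental, and 0.152% without treated clone 4. The level in GSK126-treated cells was the lower of the pair in clone 3 and the higher in clone 4.

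ECEL1 (chr2:233344537-233352544, minus strand), a membrane metalloprotease of the neprilysin family expressed in neurons, had 8577 counts in parental cells, 86 and 72 in clone 3 and 9 and 9 in clone 4. The clones did not overlap, and clone 4 kept 0.106% and 0.123% of parental. COCH (chr14:31343720-31364271, plus strand), which encodes cochlin of the inner ear matrix, had 1169 parental counts, 7 and 5 in clone 3, and 3 and 0 in clone 4. These correspond to 0.581% of parental at most. PCSK1 (chr5:95726037-95769847), a prohormone convertase of neuroendocrine cells, had 1519 parental counts and then 4, 7, 4 and 6, so the clones overlapped.

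Matrix remodeling genes were among those lost. MMP14, the membrane-anchored collagenase that also activates other metalloproteases, had 2551 parental counts, 77 and 78 in clone 3 and 15 and 7 in clone 4. MMP11, a secreted metalloprotease known from tumor stroma, had 527 parental counts, 27 and 18 in clone 3 and 36 and 20 in clone 4. AEBP1, a collagen-binding carboxypeptidase-like protein, was closest to complete loss in this group, with 401 parental counts and 1, 0, 1 and 0 in the EIR libraries, at least 128-fold lower. MFAP2, a microfibril component, had 167 parental counts, 13 and 4 in clone 3 and 0 and 1 in clone 4. Growth factor and peptide genes were represented by MDK, the heparin-binding factor midkine, with 2436 parental counts, 107 and 109 in clone 3 and 34 and 30 in clone 4, and by ADM2, the adrenomedullin 2 peptide, with 170 parental counts and 7 to 11 in the EIR libraries. SPINT1, a membrane-bound inhibitor of the hepatocyte growth factor activator, had 153 parental counts and 2 to 8 in EIR libraries. DPP7, a dipeptidyl peptidase, retained 3.60% to 6.73% of parental, and PRSS56, a serine protease, is described with its locus.

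Transcription, chromatin and RNA regulators numbered 11, with the cell cycle inhibitor CDKN1C placed among them. MEOX1 (chr17:41717757-41739290, minus strand) is a homeobox factor that patterns the somites, and it had 3557 counts in parental cells (119 CPM), 14 and 7 in clone 3 and 9 and 8 in clone 4. The EIR libraries kept 0.200% to 0.382% of parental, and the clones overlapped. TAL1, a basic helix-loop-helix factor of blood development, had 729 parental counts and 4, 6, 7 and 2 in the EIR libraries. LDB2, an adaptor that bridges LIM-domain transcription factors, had 480 parental counts, 3 and 2 in clone 3, and 0 and 8 in clone 4. These developmental regulators each kept under 2% of the parental level in every EIR library.

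LIN28A (chr1:26737308-26756219, plus strand), the RNA-binding protein of early embryonic cells that blocks maturation of let-7 microRNAs, had 1450 parental counts, 32 and 6 in clone 3 and 56 and 60 in clone 4. STAT5B, which carries cytokine and growth hormone signals to the nucleus, had 716 parental counts, 47 and 49 in clone 3 and 4 and 9 in clone 4. H1-3, a linker histone gene, had 4138 parental counts and 257, 210, 204 and 341 in the EIR libraries, so its loss was shallower. CDKN1C, the cyclin-dependent kinase inhibitor p57, had 190 parental counts and 8, 2, 7 and 12. CECR2, a bromodomain subunit of an ISWI-type remodeling complex, had 268 parental counts, 23 and 22 in clone 3 and 3 and 2 in clone 4. ESRP2, an epithelial splicing regulator, had 274 parental counts and 1 to 6 in EIR libraries. TCEAL3 and NSUN7 completed the group, with highest EIR values of 3.31% and 2.12% of parental. H1-3, TCEAL3, STAT5B and RTL8B have close copies in the genome, and how RSEM shared their reads is not recorded, so their values are uncertain.

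Metabolic enzymes and binding proteins numbered 9. FADS2, the delta-6 desaturase that starts synthesis of long polyunsaturated fatty acids, had 7459 parental counts, 336 and 450 in clone 3 and 182 and 181 in clone 4, or 2.47% to 6.14% of parental. PRTFDC1, a relative of the purine salvage enzyme HPRT1, had 2191 parental counts, 10 and 8 in clone 3 and 3 and 3 in clone 4. NMNAT3, an enzyme of NAD synthesis, had 159 parental counts and no count in any EIR library, at least 50.8-fold lower. SELENBP1, a methanethiol oxidase, had 693 parental counts, 7 and 4 in clone 3 and 41 and 33 in clone 4. Here clone 3 was the lower of the clones. ECHDC3, an enoyl-CoA hydratase domain protein, had 163 parental counts and 2, 2, 2 and 0, at least 52.1-fold lower. RBP7, a retinol-binding protein, AS3MT, an arsenic methyltransferase, IAH1, an esterase relative, and CYGB, cytoglobin, kept up to 7.56%, 8.63%, 5.12% and 8.29% of parental.

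Transporters and channels numbered 5. SLC16A6, of the monocarboxylate transporter family, had 5671 parental counts, 394 and 514 in clone 3 and 84 and 191 in clone 4, or 1.50% to 9.23% of parental. SLC38A5, an amino acid transporter, was lower, with 550 parental counts and 4, 5, 1 and 5. SLC22A3, an organic cation transporter, had 368 parental counts, 12 and 10 in clone 3 and 6 and 3 in clone 4. SV2A, a synaptic vesicle protein, kept 0.649% to 4.97%, and SCN4B, a sodium channel beta subunit, 3.20% to 8.08%.

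Cytoskeleton, junction and trafficking genes numbered 11, with CAND2, a regulator of cullin ligases, placed among them. LAD1, an anchoring filament protein of basement membranes, had 4641 parental counts and a narrow EIR range of 144, 131, 130 and 123, or 2.83% to 3.10% of parental. CAPG, an actin-capping protein, had 2198 parental counts, 190 and 172 in clone 3 and 46 and 42 in clone 4. DLG3, a scaffold of synapses and junctions, had 1963 parental counts, 118 and 148 in clone 3 and 60 and 102 in clone 4. EHBP1L1, a trafficking protein, had 1431 parental counts and 32 to 77 in the EIR libraries. PHETA2, an endosomal adaptor, had 477 parental counts and 2, 1, 2 and 2, at least 152-fold lower. DYNLT3, a dynein light chain, had 171 parental counts and 3, 0, 3 and 2, at least 54.7-fold lower. PACS1, an adaptor that sorts furin, had 327 parental counts and 1 to 4 in EIR libraries. The remaining 4 genes, DNM3, FLNC, GAS7 and CAND2, kept up to 9.74%, 5.45%, 6.22% and 2.66% of parental.

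Receptors and signaling adaptors numbered 7. LRRN3 (chr7:110731062-110765510, plus strand), a neuronal leucine-rich repeat protein, had 2495 parental counts, 32 and 30 in clone 3 and 107 and 82 in clone 4. IRAK3, an inhibitory member of the kinase family of Toll-like receptor signaling, had 1252 parental counts, 5 and 6 in clone 3 and 13 and 13 in clone 4. In both of these genes clone 3 was the lower clone. For IRAK3 the difference between the clones was not called (DESeq2 adjusted p = 0.7656). NOTCH3, a Notch receptor, had 280 parental counts and 6, 14, 13 and 20. RTN4RL1, of the Nogo receptor family, had 673 parental counts and 33 to 59 in EIR libraries. PLXNA4, a semaphorin receptor, had 232 parental counts and 1 to 8. NPR1, a natriuretic peptide receptor, kept 1.85% to 3.91%, and NEURL1, a ubiquitin ligase, 0% to 6.79%. The 4 genes outside these groups were FAM184A, the retrotransposon-derived RTL8B and the lncRNAs ENSG00000224099 and ENSG00000226816. RTL8B had 268 parental counts and 0, 2, 0 and 1, at least 85.7-fold lower, and ENSG00000224099 had 473 and then 2, 2, 0 and 0, at least 151-fold lower.

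Per kilobase of transcript (the median length of a gene's annotated transcripts), parental levels were 527 CPM per kilobase for PKDCC, 313 for FADS2, 275 for LAD1, 179 for H1-3, 111 for ECEL1 and 98.9 for MEOX1. The lengths used were 773 bases for PKDCC, 799 for FADS2, 565 for LAD1 and 776 for H1-3. Lengths of the transcripts made in these cells were not determined, so the order of genes on this scale is uncertain. The depth of loss overlapped between the groups. The median highest EIR value was 3.27% of parental for secreted, matrix and protease genes, 3.31% for transcription, chromatin and RNA regulators, 4.34% for receptors and signaling adaptors, 4.97% for transporters and channels, 5.22% for cytoskeleton, junction and trafficking genes and 5.99% for metabolic enzymes. Within each of the groups the range was wide, for instance 0.252% to 7.58% among secreted, matrix and protease genes.

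The fit of all genes is given for reference. Its EIR libraries are pairs from the same clones, and the parental side is a single library. The p-values of this contrast, also for the relatives and lists below, thus measure spread between EIR libraries and not between independent clones. With the libraries of each clone summed, or in edgeR, fewer genes were called over all genes. In DESeq2 with the 4 EIR libraries against the parental library, 13.2% of 16288 tested genes were called lower and 12.4% higher at an adjusted p under 0.05. Of the 60 genes 58 were called lower, all but RBP7 and PRSS56, and since the rule used this contrast nothing is read from that count.

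The rule did not use the difference between the clones, which was tested with treatment as covariate in the 4 EIR libraries. With both libraries of a clone drawn from the same clone, these p-values measure the spread between libraries and not between independent clones. Residual RNA in clone 4 was lower in 7 genes and higher in 1, of the 37 genes with enough counts for an adjusted p in DESeq2. Over all 17708 genes with an adjusted p, 6.52% were called lower in clone 4 and 3.30% higher. The other 23 genes had no adjusted p because of low counts. SLC16A6 was lower in clone 4, by -1.71 ± 0.34 on the log2 scale (± SE throughout, DESeq2 adjusted p = 1.28e-05). CAPG (-1.93 ± 0.47, DESeq2 adjusted p = 7.55e-04) and ECEL1 (-3.02 ± 0.76, adjusted p = 0.0014) were also lower there. In these 3 genes each clone 4 library lay below each clone 3 library.

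MMP14 (-2.77 ± 0.77, DESeq2 adjusted p = 0.0048), FADS2 (-0.99 ± 0.32, adjusted p = 0.0225), STAT5B (-2.85 ± 0.96, adjusted p = 0.0331) and MDK (-1.65 ± 0.57, adjusted p = 0.0433) were the other 4 genes lower in clone 4. LRRN3 was the gene higher in clone 4, with a log2 fold change of 1.71 ± 0.59 and a DESeq2 adjusted p of 0.0423. SELENBP1 (2.90 ± 1.03, DESeq2 adjusted p = 0.0518) did not pass. These calls concern small residues, and leaving out a library gave between 2 and 9 calls. Without untreated clone 3 the count was 3, and without treated clone 3 it was 2. ECEL1 and CAPG lost their call without untreated clone 3, SLC16A6 and FADS2 without treated clone 3, MMP14 and MDK without either, and STAT5B and LRRN3 without either and also without untreated clone 4, with DESeq2 adjusted p of up to 0.5595. Across the whole set neither clone was the lower more often, since the mean share of parental was lower in clone 4 for 30 genes, lower in clone 3 for 29 and equal for 1. The median over the genes was 1.81% in clone 3 and 1.50% in clone 4. PKDCC, MEOX1 and COCH did not pass, COCH without an adjusted p in DESeq2. In edgeR's quasi-likelihood test, 10 of 59 genes of the set were called between the clones, 8 lower and 2 higher in clone 4. Over all genes this test called 1921, of which 32.2% were higher. The calls it added were SELENBP1, higher in clone 4 (edgeR adjusted p = 0.0139), and CECR2, lower (edgeR adjusted p = 0.0376).

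**Figure D2:**
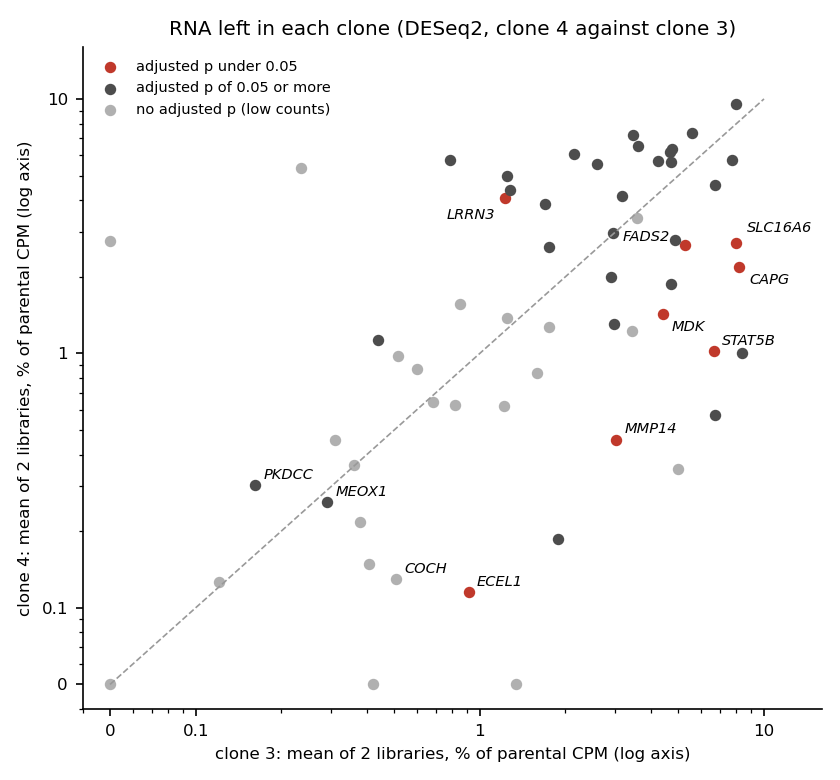
Mean percent of parental CPM left in clone 3 (x) and in clone 4 (y), each the mean of 2 libraries on a log axis with 0 drawn at the edge, and the dashed line at equality. Red points are the 8 genes with a DESeq2 adjusted p under 0.05 for clone 4 against clone 3, of which 7 lie below the line and LRRN3 above it.

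The sets that met the rule in each clone alone were of unequal size. Clone 3 by itself gave 81 genes, of which the 60 shared genes are 74.1%, and clone 4 gave 155 genes, of which they are 38.7%. In the opposite direction, 47 genes met the mirrored rule (at least 5 CPM in every EIR library and a parental level of at most 10% of each).

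No gene of the set was called between GSK126-treated and untreated EIR libraries. DESeq2 tested 59 of them, called 0, and found 0 with an unadjusted p under 0.05. Over all 29847 genes tested, 0.00335% were called and 0.392% had an unadjusted p under 0.05. edgeR's quasi-likelihood test also called 0 of the 59, with 0 at an unadjusted p under 0.05. In a paired fit, with clone as a replicate block, DESeq2 called 0.0134% of all genes and 0 of the set, and 1 gene of the set, SLC16A6, passed 0.05 before adjustment (log2 fold change 0.83 ± 0.34, adjusted p = 0.9999). The effect of treatment on SLC16A6 was 0.45 on the log2 scale in clone 3 and 1.37 in clone 4, with 0.1 CPM added to each value. Among the 42 genes with at least 20 counts over the EIR libraries, the treated library was higher in both clones for 14, lower in both for 8 and opposite for 20. Of 9986 other eligible genes with as many counts, 34.7% were higher in both, 14.2% lower in both and 51.1% opposite. With 2 libraries on each side, the lack of a call does not show that GSK126 left these genes unchanged.

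The 60 genes were spread over the genome. They lay on 18 of the 23 chromosomes listed, most on chromosome 1, with 9 genes, while chromosomes 8, 13, 18, 20 and 21 held none. As a share of the eligible genes of a chromosome, 22 (4 of 252, 1.59%), X (5 of 331, 1.51%), 7 (5 of 461, 1.08%) and 11 (6 of 585, 1.03%) had the most. Only ECEL1 and PRSS56 were next to each other among expressed genes, 32.6 kb apart on chromosome 2. PRSS56 (chr2:233385098-233390426, plus strand), a serine protease of the eye, had 179 parental counts, 0 and 0 in clone 3 and 4 and 5 in clone 4, while ECEL1 was lower in clone 4. The nearest genes beyond this pair, DIS3L2 and TIGD1, had log2 ratios of EIR to parental CPM of -0.01 and -0.06.

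Genes around the lost genes mostly kept their level. The nearest expressed gene on either side (118 neighbours, at least 5 parental CPM, genes of the set left out) had a median log2 ratio of EIR to parental CPM of -0.07 with quartiles of -0.51 and 0.26. Over all 10412 other protein-coding and lncRNA genes at that level the median was -0.03, with quartiles of -0.43 and 0.38. A neighbour at 50% of parental or lower was found in 12 cases (10.2%), against 8.27% over all genes. Over the 5 expressed genes on each side (585 genes), the median was -0.13, and 66 (11.3%) were at 50% or lower. PKDCC lay between THUMPD2, with 332 parental counts and 662 to 802 in the clones, and EML4, with 3876 and 4291 to 4858. COCH lay between SCFD1, with a log2 ratio of 1.26, and STRN3, with 0.05.

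**Figure D3:**
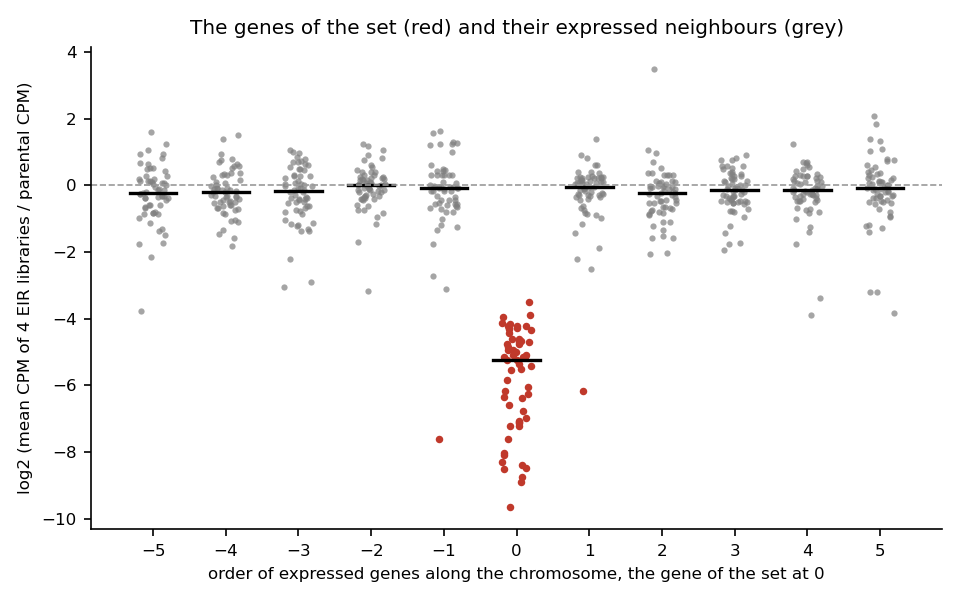
Log2 ratio of the mean CPM of the 4 EIR libraries to parental CPM for the genes of the set (red) and for the 5 expressed genes on either side of each (grey), in order along the chromosome, with a bar at the median. NMNAT3, with no EIR count, has no point, and the nearest neighbours center on -0.07.

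A few neighbours were lower in EIR cells as well. On chromosome 17, SLC16A6 overlapped ARSG, a sulfatase gene on the opposite strand, which had 615 parental counts, 130 and 139 in clone 3 and 51 and 43 in clone 4 (log2 ratio -2.73). On the other side WIPI1, an autophagy gene 129.7 kb away, had 2828 parental counts and 511 to 685 in EIR libraries (-2.22). The next genes out, AMZ2 and PRKAR1A, had ratios of -0.75 and -0.04. SCN4B lay 11.5 kb from TMPRSS4, a membrane serine protease gene with 291 parental counts and 22 to 54 in EIR libraries (-3.10). The next expressed gene beyond TMPRSS4, the ion transport regulator FXYD6, had a ratio of -3.18, and FXYD2 after it -0.03, so 3 consecutive expressed genes were low there. Beside H1-3, the histone gene H4C8 had 2015 parental counts, 675 and 745 in clone 3 and 3 and 2 in clone 4. Beside MEOX1, the ETS factor ETV4 had a ratio of -1.77 and DUSP3, a phosphatase gene, -0.35. FADS1, the delta-5 desaturase gene that overlaps FADS2, had a ratio of -1.17. CDKN1C sits in an imprinted region, where the lncRNA KCNQ1OT1 was 1.57 and SLC22A18 -0.98.

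In 12 genes of the set the annotation overlaps another gene with at least 20 counts in a library, 3 of them on the same strand. Whether counting used the strand is not given in the sources used here, so reads in the overlaps cannot be assigned. ESRP2 overlaps the lncRNA ENSG00000262160 on its own strand, and that gene was also lower, with 118 parental counts and 6 to 15 in EIR libraries. TCEAL3 overlaps TCEAL1 on its strand, which had 314 parental counts and 353 to 427 in EIR libraries. In COCH the overlapping STRN3 kept its level, with 2964 parental counts and 2576 to 3191.

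Close relatives of the lost genes were then examined, chosen by family name after the set was known. Of 67 relatives of 42 genes, 66 were in the table and 38 had at least 5 parental CPM, with a median log2 ratio of EIR to parental CPM of -0.33, against -0.03 over all genes at that level outside the set. DESeq2 gave 49 an adjusted p and called 14 lower, 4 higher and 31 not, where 13.2% of all genes tested were called lower and 12.4% higher. HPRT1, the purine salvage enzyme related to PRTFDC1, had 367 parental counts, 439 and 435 in clone 3 and 537 and 742 in clone 4 (DESeq2 adjusted p = 0.3760). CAND1, the ubiquitous relative of CAND2, had 6697 parental counts and 6871 to 8481 in EIR libraries (adjusted p = 0.3242). DLG1 and IRAK1 were not called either, with log2 ratios of 0.19 and 0.04. In the Notch family NOTCH2 was not called (0.23), and NOTCH1 was called lower with a DESeq2 log2 fold change of -0.67 ± 0.21 (adjusted p = 0.0102).

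Other families held a relative that was called lower. PLXNA3, a plexin like PLXNA4, had 120 parental counts and 1, 2, 0 and 0 in the EIR libraries, and missed the set because its parental level was 4.02 CPM (DESeq2 adjusted p = 6.40e-07). SPINT2, like SPINT1 a protease inhibitor, was called lower with a DESeq2 log2 fold change of -2.04 ± 0.60 (adjusted p = 0.0049). FURIN, a proprotein convertase like PCSK1, was called lower at -1.81 ± 0.25 (DESeq2 adjusted p = 3.84e-11), and MMP15, a membrane metalloprotease like MMP14, at -1.87 ± 0.74 (adjusted p = 0.0456). NEURL1B and LDB1 were called lower at -1.70 ± 0.52 (DESeq2 adjusted p = 0.0067) and -1.18 ± 0.16 (adjusted p = 5.61e-11). STAT5A, the close copy of STAT5B, was near 0 in every library, with 3 parental counts and none in EIR libraries, and had no adjusted p.

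For 4 families a relative was called higher in EIR cells, to be read against the share of all genes given above. SLC16A7, SLC22A2 and PTN had 3 parental counts or fewer, so only their EIR counts brought them an adjusted p. Relatives with few counts in all libraries, such as STAT5A, had none. MMP16, another membrane metalloprotease, had 143 parental counts, 988 and 1046 in clone 3 and 497 and 516 in clone 4 (DESeq2 log2 fold change 2.38 ± 0.48, adjusted p = 1.63e-05). SLC16A7, a monocarboxylate transporter, had 1 parental count, 476 and 490 in clone 3 and 34 and 30 in clone 4 (DESeq2 adjusted p = 0.0061). SLC22A2, an organic cation transporter, had 3 parental counts, 34 and 33 in clone 3 and 126 and 157 in clone 4 (DESeq2 adjusted p = 0.0019). PTN, the heparin-binding relative of MDK, had no parental count and 8 to 41 in EIR libraries (DESeq2 adjusted p = 0.0172). In CPM, the EIR libraries reached 35.7 for MMP16, 16.7 for SLC16A7, 6.16 for SLC22A2 and 1.40 for PTN.

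**Figure D4:**
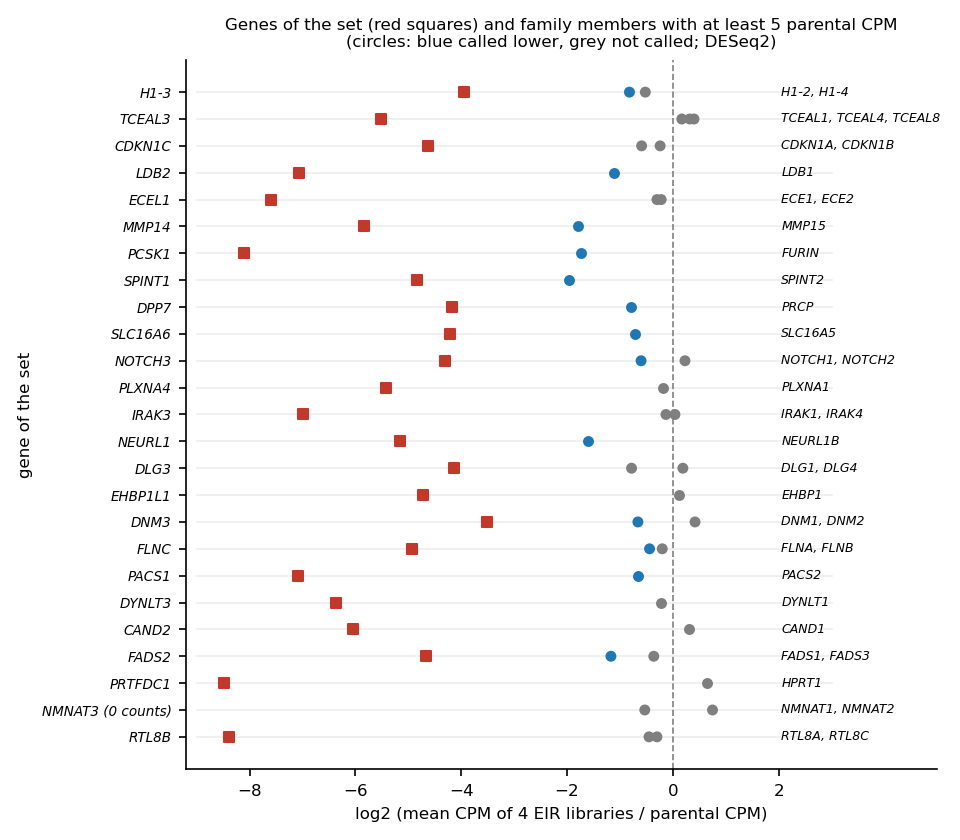
Log2 ratio of the mean CPM of the 4 EIR libraries to parental CPM for 25 genes of the set (red squares) and for their relatives with at least 5 parental CPM (circles, blue where DESeq2 called them lower and grey where not). The relatives center on -0.33, and no relative shown lies as low as its gene of the set; NMNAT3, with no EIR count, has no square.

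Other genes of the pathways around the leading genes were examined as lists, to be read against the 12.4% of all genes called higher and the 13.2% called lower in the same fit. Among secretory pathway kinases, DESeq2 called 2 of the 10 tested besides PKDCC higher, 1 lower and 7 not. FAM20B, the xylose kinase of proteoglycan synthesis, had 2496 parental counts and 2142 to 2521 in EIR libraries. DIPK1B was lower at -2.45 ± 0.36 (DESeq2 adjusted p = 1.14e-09), and FJX1 higher at 1.21 ± 0.33 (adjusted p = 0.0025). DIPK2A was the other gene called higher, at 0.88 ± 0.34 (adjusted p = 0.0394).

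Of the paraxial mesoderm transcription factors tested besides MEOX1, 4 of 8 were called higher, 1 lower and 3 not. FOXC1, a forkhead factor of somites, was higher at 1.64 ± 0.38 (DESeq2 adjusted p = 1.93e-04), and PAX3, a factor of muscle precursors, at 1.70 ± 0.57 (adjusted p = 0.0157). PAX9 and EYA1 were the other 2, with 1 and 0 parental counts, so only their EIR counts brought them an adjusted p. NKX3-2, with 19 parental counts and 2 to 11 in EIR libraries, had no adjusted p. TBX18, called lower, had -0.71 ± 0.26 (DESeq2 adjusted p = 0.0280). MEOX2, the paralog of MEOX1, had no parental count and at most 3 in an EIR library.

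The purine list, which mixed salvage enzymes with other purine enzymes, gave 0 higher, 5 lower and 13 not called besides PRTFDC1. HPRT1, APRT and ADK were not called (DESeq2 adjusted p = 0.3760, 0.6277 and 0.9793), whereas ADA and DGUOK were called lower (adjusted p = 0.0099 and 3.61e-04). GDA, guanine deaminase, a catabolic enzyme, was lower at -1.71 ± 0.50 (DESeq2 adjusted p = 0.0041). PRPS2 and NT5C2 were among the lower genes, at -0.98 ± 0.21 and -0.73 ± 0.21. Proteins listed for LCCL, CRISP or matrilin-type domains, not all of them matrix proteins, gave 4 higher, 1 lower and 6 not called besides COCH. DCBLD2 was higher at 1.00 ± 0.27 (DESeq2 adjusted p = 0.0021), and VWA1 lower at -1.63 ± 0.47 (adjusted p = 0.0036). Of 5 germline genes with enough counts, TEX15 was called higher, with 250 parental counts and 668 to 1318 in EIR libraries, and 4 were not called. The median log2 fold changes of the tested genes of each list, leaving out genes of the set, were 0.71, 1.29, 0.06, 0.48 and 1.87 in the order given, against 0.00 over all genes tested. A gene with few or no parental counts, such as VIT (0) in the list with COCH, was tested only if its EIR counts were high. This favors positive medians and higher calls, so no direction of a list is read from them.

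Transcripts of the set were richer in G and C, with a median of 56.1% (quartiles 48.3% and 60.8%) against 48.5% (42.8% and 56.4%) over the eligible genes. They had a median length of 1393 bases against 1130. With the ratios to parental divided by the median ratio of expressed genes of like GC content, 52 of the 60 genes still met the rule. The 8 genes that then missed it were ADM2, CAPG, CDKN1C, CYGB, H1-3, MMP11, NOTCH3 and RTN4RL1.

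Promoters are among the sites where PRC2 and SWI/SNF are known to act, and sites farther from the genes were not examined. Windows ran from 250 bases before to 50 bases after the transcription start in RefSeq (GRCh38.p14). A window was available for 43 of the 60 genes, without PKDCC and MEOX1. Of these 31 (72.1%) were CpG-rich, defined as at least 50% G and C and a ratio of observed to expected CpG of at least 0.6, against 84.7% of 8253 eligible genes and 46.9% of 27305 promoters. Both CpG-rich and CpG-poor promoters thus occurred in the set, and whether the depth of loss differed between them was not tested. The windows printed here show the range: COCH, a gene named above for near-complete loss with 40 CpGs in its window, and, of the genes with at least 50 parental CPM, LRRN3, with the lowest CpG ratio (0.316, 5 CpGs), and ECEL1, with the highest (1.01, 49 CpGs). The bases before the outermost annotated start are printed 5′ to 3′ on the strand of the gene, with each CpG in capitals, at their exact-match position in GRCh37: COCH chr14:31343515-31343719 (plus strand, 27 CpGs), LRRN3 chr7:110730933-110731061 (plus strand, 0 CpGs) and ECEL1 chr2:233352545-233352794 (minus strand, 41 CpGs).
COCH: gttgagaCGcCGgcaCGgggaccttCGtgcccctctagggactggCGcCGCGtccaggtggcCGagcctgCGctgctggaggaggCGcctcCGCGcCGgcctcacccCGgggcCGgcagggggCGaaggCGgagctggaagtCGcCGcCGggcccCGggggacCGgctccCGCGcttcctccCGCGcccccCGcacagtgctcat
LRRN3: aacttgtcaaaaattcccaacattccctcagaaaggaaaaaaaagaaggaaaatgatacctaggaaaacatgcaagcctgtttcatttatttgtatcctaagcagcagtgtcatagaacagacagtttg
ECEL1: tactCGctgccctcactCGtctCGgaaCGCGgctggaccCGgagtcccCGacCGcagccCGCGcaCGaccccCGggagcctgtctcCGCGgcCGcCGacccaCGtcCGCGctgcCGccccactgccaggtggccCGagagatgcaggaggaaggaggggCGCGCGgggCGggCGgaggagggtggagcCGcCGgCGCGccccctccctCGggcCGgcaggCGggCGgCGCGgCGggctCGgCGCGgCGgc
In the printed LRRN3 stretch no CpG occurs, whereas the ECEL1 stretch carries CpGs throughout. Both genes kept less than 5% of their parental level in every EIR library. The rule chose them for low levels, so nothing on CpG content and loss is read from this.

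Short motifs were counted in the same windows on both strands, as letters only. The CCAAT box (CCAAT) was in 7 of 43 windows (16.3%), against 37.6% of eligible genes and 35.7% of all promoters. The TEAD motif (GGAATG) was in 9 (20.9%, against 10.3% and 14.0%) and the AP-1 motif (TGANTCA) in 4 (9.30%, against 3.94% and 7.76%). The GC box (GGGCGG) was in 32 (74.4%, against 72.9% and 44.6%) and the E-box (CANNTG) in 27 (62.8%, against 58.6% and 68.9%). The TATA box (TATAAA) was in 5 (11.6%, against 4.91% of eligible genes and 3264 of 27305 promoters, a share close to that of the set), the cyclic AMP response element (TGACGTCA) in 1 (2.33%, against 3.50% and 1.98%) and the HNF1 half-site (GTTAAT) in 0 (against 3.09% and 6.89%). Motifs may overlap, the shares rest on few windows, and a match is not a bound site.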

How the data were processed

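Total RNA of 5 cultures was sequenced, with groups and clone numbers taken from the labels. The authors aligned paired-end reads of 75 bases to hg19 with bowtie2 and deposited the estimated counts of RSEM per Ensembl gene (release not given in the sources used here), which are whole numbers and not normalized. RSEM divides reads among genes that share sequence by estimation. Versions of RSEM differ between the sources, 1.2.3 in the submitters' processing notes.

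CPM, symbols, biotypes and coordinates (GENCODE release 44 on GRCh37, 29203 of 30476 identifiers matched) were computed or assigned here. The test of each gene used DESeq2 1.42.0 under R 4.3.3 (Wald test, two-sided, Benjamini-Hochberg adjusted p under 0.05 over all genes), the tool the study used. The comparisons were EIR libraries with the parental library, clone 4 with clone 3 with treatment as covariate, and GSK126-treated with untreated EIR libraries. The clone number pairs libraries of the same clone (correlation of their deviations 0.864 over 11479 genes), and was used as replicate block in an alternative. The code was tested on simulated data. Alternatives were edgeR 4.0.16 (quasi-likelihood test), other scalings and filters, leaving out each EIR library, and other limits of the rule.

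The members, functional groups, relatives and lists were chosen with earlier results of these data known. Genes named were the 3 given as examples (PKDCC, MEOX1, COCH), those with the highest parental CPM in the set, among near-zero genes and per functional group, those called between clones, those at the limits and in adjacent loci, and called genes of each list. Other genes of the set are named so that each member is accounted for. Promoter sequences came from RefSeq. Counts carry no molecular identifiers, so floors cover counting error only.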

Additional observations from a re-analysis of the deposited data

Results flagged for a closer look

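Among the 4 EIR libraries, a single library stood apart from the other 3 in 3 of the 59 genes with any spread, and chance alone would flag about 1 in 20. GAS7, an actin-binding protein gene, had 1.10 CPM (28 counts) in GSK126-treated clone 4 and 0.271 to 0.307 CPM in the others. NPR1 had 0.358 CPM (11 counts) in untreated clone 3 against 0.170 to 0.196 CPM. ECHDC3 had 0 CPM in GSK126-treated clone 4 against 0.0650 to 0.0683 CPM, a difference of 2 counts.

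The residual level differed between the clones in the DESeq2 fit for 8 genes. The log2 fold changes of clone 4 against clone 3 were -1.71 for SLC16A6, -1.93 for CAPG, -3.02 for ECEL1, -2.77 for MMP14, -0.99 for FADS2, -2.85 for STAT5B, 1.71 for LRRN3 and -1.65 for MDK. CAPG, SLC16A6, FADS2 and ECEL1 kept an adjusted p under 0.05 in 9 of 10 alternative fits each, MMP14 in 8, and MDK, LRRN3 and STAT5B in 6. EPCAM moved with the clones too, from 13.8 and 17.0 CPM in clone 3 to 0 and 0.0392 CPM in clone 4, as did CDH1, WT1 and NAPSA at lower levels, and their part in these differences was not tested.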

How the results depend on the processing

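The set of 60 genes grew to 109 at a limit of 20% of parental and shrank to 34 at 5%. It held 55 to 85 genes under the other scalings, limits and gene classes and after GC correction, except at a parental minimum of 10 CPM, which left 42. The set numbered 60 to 65 when an EIR library was left out, which under this rule can only add genes. The mean percent of parental of each gene moved beyond the spread of its EIR libraries for 1 gene under DESeq2 size factors, 1 under TMM and 8 after GC correction. Of the calls between EIR and parental libraries, 57 to 60 were made in every alternative that tested all genes of the set. With a filter of at least 10 counts in at least 2 libraries, 40 of the 40 tested were called. Since the rule used this contrast, nothing is read from these counts. The total count scaling moved the share of higher calls over all genes from 48.4% to 56.8%, and edgeR moved it to 37.2%.

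The 8 calls between clone 4 and clone 3 became 5 without independent filtering, and ranged from 2 to 9 when a library was left out, with the lone library of a clone assumed to vary like the pair of the other clone and treatment not in the fit. None of the 8 genes reversed direction in these fits. Treated against untreated EIR libraries gave 0 calls in the set in all fits, including the paired fits with the clone number as replicate block in DESeq2 (0 calls) and, added after seeing the data, in edgeR (0 calls, 2 genes with an unadjusted p under 0.05). Counts of 3 or fewer limit what can be said of the most depleted genes.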
